A study of Mus musculus with 9 samples.

Results

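Cyclic AMP enzymes and kinase A were followed in the dentate gyrus of mice before and after neuronal activation. The 41 genes are all rows of both deposited tables whose symbols name an adenylyl cyclase (Adcy with a number, 10 genes), a cyclic nucleotide phosphodiesterase (Pde with a number and a letter a to d, 22 genes), a catalytic subunit of kinase A (Prkaca and Prkacb, 2 genes), a regulatory subunit of kinase A (4 Prkar genes) or a kinase A inhibitor peptide (3 Pki genes). They were 41 of 23988 symbols that both tables share. The animals were C57BL/6 mice aged 8 weeks, and each library was made from the microdissected dentate gyrus of 1 mouse. Groups E0, E1 and E4 had 3 mice each. The labels name no treatment, and the number in a group's name has no unit there. As background to the study, E0 is tissue before stimulation, and E1 and E4 are tissue 1 h and 4 h after electroconvulsive stimulation, which makes granule neurons fire together. How E0 mice were handled is not given in the sources used here.

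Cyclic AMP is made from ATP by adenylyl cyclases, most of which sit in the membrane and are switched on by the G protein Gs. It binds the regulatory subunits of kinase A and so frees the catalytic subunits, which phosphorylate channels, receptors and the transcription factor CREB. Phosphodiesterases break cyclic AMP or cyclic GMP down, and the small Pki peptides block free catalytic subunits. In hippocampal neurons this pathway is known for its part in long-lasting synaptic plasticity and in transcription switched on by activity.

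CREB binds the sequence TGACGTCA and its shorter form TGACG, so the 250 bases before each RefSeq start site (build GRCm38.p6) were searched for these and for TGANTCA, the AP-1 sequence, on both strands. Every TGACGTCA also holds TGACG. The table of promoters held 72 start sites of 32 of the 41 genes. TGACG stood in 13 of the 72 windows, beside 17.8% of the 32851 windows of all genes, TGANTCA in 3 (6.75% of all) and TGACGTCA in 1 (1.55% of all). That one belongs to Prkar1a, 49 bases before one start site and downstream of another, and is not printed. The windows below belong to genes that the results turn on, and to Prkaca, a catalytic subunit gene with 2 matches in 1 window. Capitals mark a match on either strand, and each sequence runs 5′ to 3′ and ends at the base before the start site.
Pde4a, start site 2, chr9:21183851-21184100, plus strand: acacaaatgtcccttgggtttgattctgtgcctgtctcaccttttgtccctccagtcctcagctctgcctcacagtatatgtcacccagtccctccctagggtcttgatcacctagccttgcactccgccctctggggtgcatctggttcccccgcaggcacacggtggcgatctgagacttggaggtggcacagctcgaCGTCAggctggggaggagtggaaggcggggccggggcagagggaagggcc
Pkig, start site 1, chr2:163658136-163658385, plus strand: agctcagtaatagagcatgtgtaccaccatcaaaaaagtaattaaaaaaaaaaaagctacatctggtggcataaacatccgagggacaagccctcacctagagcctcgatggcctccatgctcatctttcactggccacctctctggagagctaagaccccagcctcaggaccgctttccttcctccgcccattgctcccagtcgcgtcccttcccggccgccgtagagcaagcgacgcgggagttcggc
Pkig, start site 3, chr2:163693787-163694036, plus strand: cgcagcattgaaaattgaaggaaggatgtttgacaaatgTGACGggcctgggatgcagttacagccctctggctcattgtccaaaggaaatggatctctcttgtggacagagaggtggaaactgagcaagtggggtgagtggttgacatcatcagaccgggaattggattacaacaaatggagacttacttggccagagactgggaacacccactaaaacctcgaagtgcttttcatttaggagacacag
Pkib, start site 1, chr10:57631731-57631980, plus strand: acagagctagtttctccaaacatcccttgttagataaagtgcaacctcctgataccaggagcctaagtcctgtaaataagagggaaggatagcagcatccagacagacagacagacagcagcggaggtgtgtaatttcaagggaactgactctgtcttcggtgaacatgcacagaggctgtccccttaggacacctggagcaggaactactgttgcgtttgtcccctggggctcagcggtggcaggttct
Prkaca, start site 1, chr8:83972728-83972977, plus strand: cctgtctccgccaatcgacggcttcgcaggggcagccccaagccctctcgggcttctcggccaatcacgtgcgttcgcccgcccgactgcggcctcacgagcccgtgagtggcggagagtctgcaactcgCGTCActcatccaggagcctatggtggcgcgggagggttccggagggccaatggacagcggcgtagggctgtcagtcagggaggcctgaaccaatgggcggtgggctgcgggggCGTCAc
The match in Pde4a begins 50 bases before the start site, that in Pkig 211 and those in Prkaca 120 and 6. The windows of Pkib and of the upstream start site of Pkig held none of the 3 sequences. These matches are letters in a window and were not tested as binding sites.

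The authors deposited a table for each later group, E1 or E4, set against E0. It gives for every gene the mean over 6 libraries of counts divided by size factors (normalised count), the log2 fold change, the standard error of that change (SE) and the adjusted p of DESeq2. A gene is called raised or lowered where that adjusted p was below 0.05. Levels per group were computed from the mean count and the fold change, all on the scale of the table for E4, onto which E1 values were brought with the factor 1.89 found from the E0 libraries that both tables share. The tables were normalised separately, so no test was made on these levels. The deposited fold changes appear shrunken toward 0, and so would understate large changes of rarely read genes. For 28 members whose means reached 50 in each table, Pkib left out, the E0 level computed from one table was 0.984 to 1.03 times that from the other. The E0 levels of Pkib differed more, at 106 from the E1 comparison and 74.2 from that of E4, and are not used below. For 15 rarely read members the whole reads in each of the 9 libraries could be solved from the mean counts. They are given for the deepest library of a group first, and as RPM, the reads of a gene per 1000000 reads in genes, with SD over the 3 libraries. Libraries could not be matched to replicate numbers.

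The E1 libraries were shallow, at about 1940000 to 4760000 reads in genes, beside 6140000 to 10960000 in E0 and 10020000 to 13550000 in E4. All 10 granule neuron markers were read, with mean counts of 167 to 1642 in the table for E1. In E1 8 of them were lowered and 1 raised (median log2 fold change -0.68), GABAergic interneuron markers had 6 of 10 raised (median 0.59), astrocyte markers 6 of 8 lowered (median -0.50) and endothelial markers 3 of 6 raised and 1 lowered (median 0.77). Markers of CA pyramidal neurons had 3 of 7 raised and 1 lowered in E1, those of oligodendrocytes 1 of 8 raised and 2 lowered, those of microglia 2 of 7 lowered, and those of striatum or choroid plexus 2 of 4 tested lowered. In E4 4 granule markers were raised and 6 lowered. The other lists in E4 had 2 raised and 1 lowered (interneuron), 1 raised and 2 lowered (CA pyramidal), 1 lowered (microglia), 2 raised (striatum or choroid plexus) and no call (astrocyte, oligodendrocyte and endothelium). The choroid plexus genes Folr1 and Kcnj13 had mean counts of 0.283 and 0.233 in the table for E1, and no marker of any list was at 0. What these shifts contribute to the results below was not tested, and in bulk tissue fewer cells of a type and less RNA per cell cannot be told apart.

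Calls in E1 also moved with repeats in the transcripts. Of genes tested whose longest CA or GA run in a GENCODE transcript was under 10 bases, 16.7% were called raised in E1, while the share was 33.2% for runs of 30 to 49 bases and 51.7% for runs of 50 or more. In E4 the same shares were 19.6%, 21.8% and 20.3%. Of the 41 members 6 had a run of at least 30 bases, namely Pkib with 54, Adcy8 with 52, Pde1a with 43, Adcy4 with 39, and Pde7b and Adcy10 with 31 each. The part of these runs in the members' values was not tested.

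**Figure D1:**
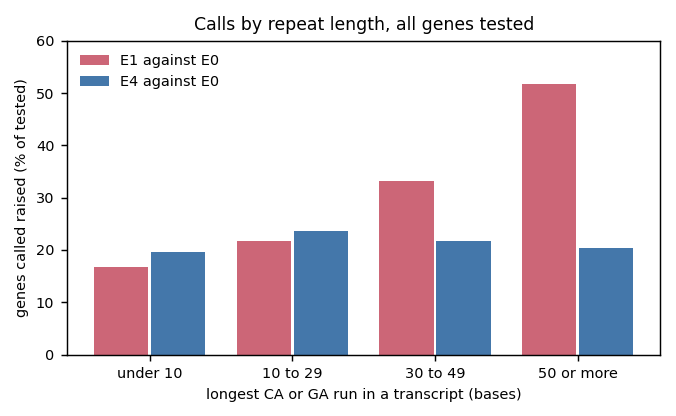
Share of all tested genes called raised (vertical axis, percent) by the longest CA or GA run in any annotated transcript (horizontal axis, bases), for E1 and E4 against E0. The E1 bars climb from 16.7% to 51.7% and the E4 bars stay between 19.6% and 23.6%.

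Per kilobase of exon, the most read member was Adcy1, a cyclase stimulated by calcium and calmodulin, with a mean normalised count of 2218 per kilobase in the table for E4. The regulatory subunit gene Prkar1a followed at 1757 per kilobase, then the inhibitor gene Pkia at 898 and the catalytic subunit gene Prkaca at 783. The regulatory Prkar1b at 777 and the catalytic Prkacb at 564 came next. Among phosphodiesterases Pde1b (395 per kilobase) and Pde2a (377) led, and Pde8b (243) and Pde4a (223) came after them. The length is that of all annotated exons together, and whether neighbours in this order differ was not tested. Pde3a, Pde1c, Pde5a and Pde11a were at 1.42 to 3.56 per kilobase, and the photoreceptor genes Pde6a, Pde6b and Pde6c were under 1.

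**Figure D2:**
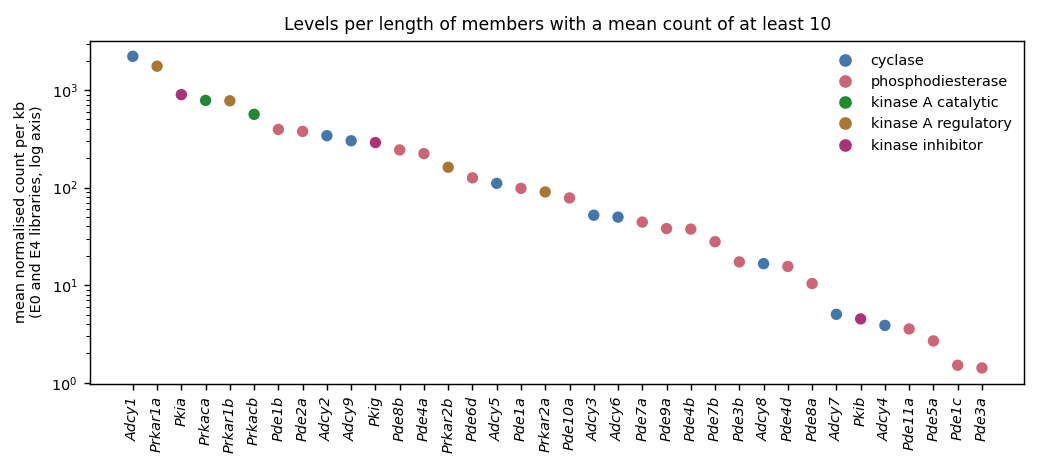
Mean normalised count per kilobase of exon over the E0 and E4 libraries (vertical axis, log scale) for the members averaging 10 counts or more, in falling order and coloured by family. Adcy1 and Prkar1a stand highest, and the inhibitor Pkib stands at 4.52.

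In E1 20 of the 39 members with an adjusted p were called, 13 raised and 7 lowered, and 19 were not. Over all 15660 genes tested 35.5% were called, 20.6% raised and 15% lowered. Members were mostly well read. Of the 30 with a mean count of at least 50, 17 were called (56.7%), beside 45.1% of all such genes. In E4 18 of 37 members were called, 7 raised and 11 lowered, and 19 were not, beside 39% of 14455 genes tested, 20.7% raised and 18.3% lowered. Of the 29 members with a mean count of at least 50, 18 were called (62.1%), beside 47.4% of all such genes. The median log2 fold change of members was 0.19 in E1 and -0.18 in E4, beside 0.02 and -0.01 over all genes tested. Pde6a and Pde6c had no adjusted p in either table, nor had Pde6b and Adcy10 in that for E4.

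**Figure D3:**
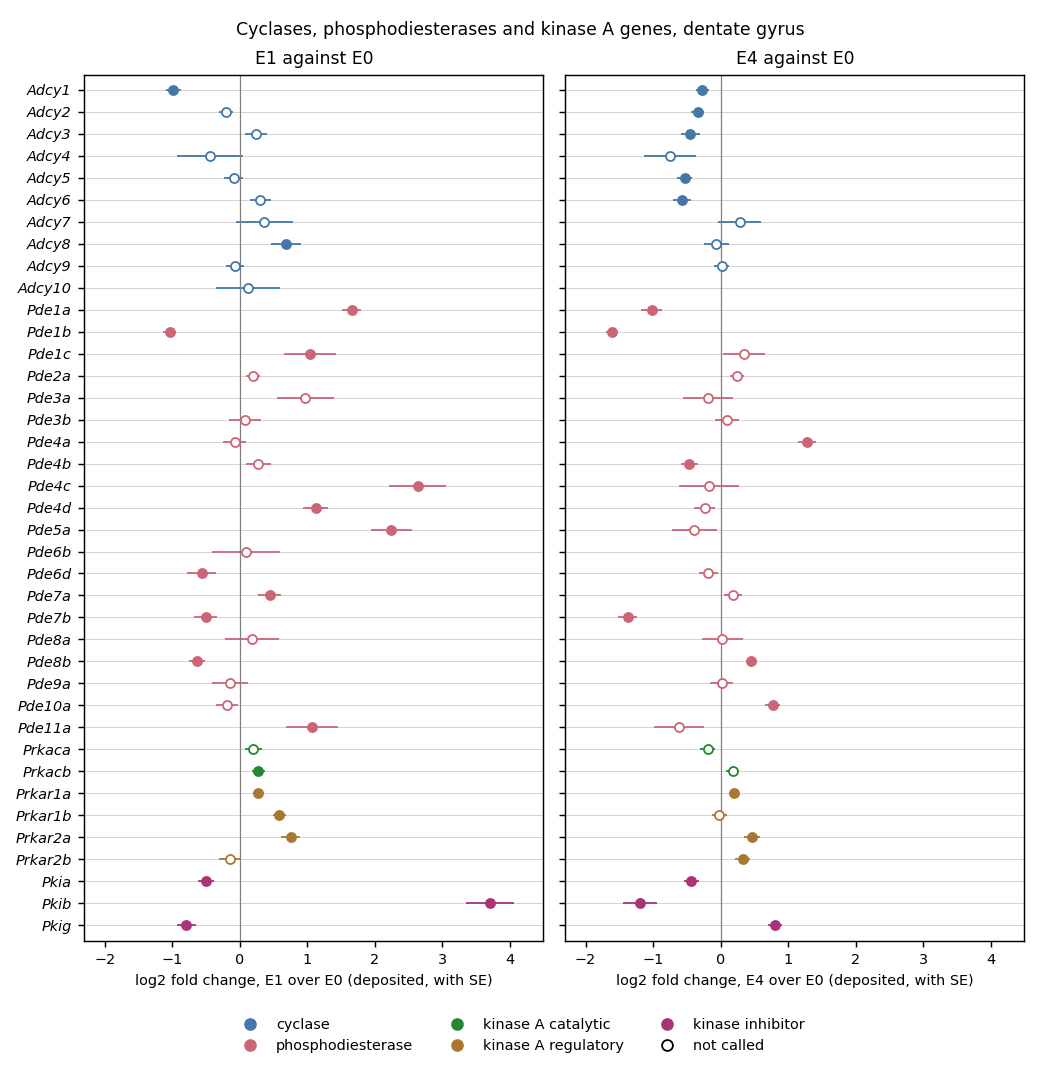
Deposited log2 fold changes (horizontal axis) with SE (whiskers) of the members with an adjusted p, for E1 and E4 over E0, coloured by family. Filled points passed the adjusted p of 0.05 and open points did not. Pkib reaches 3.71 in E1 and stands at -1.19 in E4, and the filled cyclases in E4 all lie below 0.

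Among the cyclases 1 of 10 was raised and 1 lowered in E1, and in E4 5 of 9 were lowered and none raised. Over all genes tested 20.6% were raised and 15% lowered in E1, and 20.7% and 18.3% in E4. Adcy1 stood at about 30409 normalised counts in E0, 15368 in E1 and 25148 in E4, so that the lowest level was that of E1. Its log2 fold change for E1 was -0.98 ± 0.11 (± SE) in the authors' deposited table (DESeq2 adjusted p = 2.16e-17). For E4 it was -0.27 ± 0.10 in the authors' deposited table (DESeq2 adjusted p = 0.0138). Adcy8, another cyclase that calcium and calmodulin stimulate, was read 158, 151 and 72 times in the E0 libraries, 99, 80 and 53 times in E1 and 185, 154 and 125 times in E4. That is 14.2 ± 2.45 RPM in E0, 24 ± 3.25 in E1 and 13.7 ± 1.3 in E4 (mean ± SD, n = 3 each). Each E1 library lay above every E0 library, and the E4 libraries overlapped those of E0. The authors' deposited table for E1 gives Adcy8 0.69 ± 0.23 (DESeq2 adjusted p = 0.00878), and its transcripts hold a CA or GA run of 52 bases. In the authors' deposited table for E4 Adcy8 was not called (-0.06 ± 0.18).

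Adcy5 and Adcy6, close relatives that calcium and Gi inhibit, were not called in E1 and were lowered in E4. Adcy5 stood at about 940 normalised counts in E0, 885 in E1 and 649 in E4. Its log2 fold change was -0.09 ± 0.14 for E1 and -0.53 ± 0.12 for E4 in the authors' deposited tables (DESeq2 adjusted p = 0.671 and 2.43e-05). The levels of Adcy6 were about 404, 503 and 273, with 0.31 ± 0.16 for E1 and -0.57 ± 0.13 for E4 in the authors' deposited tables (DESeq2 adjusted p = 0.121 and 0.000128). Adcy3, the cyclase of neuronal primary cilia, stood at about 376, 447 and 276. It was lowered in E4 at -0.45 ± 0.14 (DESeq2 adjusted p = 0.00513) and not called in E1 at 0.24 ± 0.16 in the authors' deposited tables. The gene Cenpo on the opposite strand covers 22.1% of the exon bases of Adcy3 and the noncoding Gm29331 8.9% of those of Adcy6, and since strand use in counting is not given their reads may not be separable. Adcy2 was the remaining lowered cyclase in E4, at -0.34 ± 0.09 in the authors' deposited table, and Adcy9, the third cyclase per kilobase, was at -0.07 ± 0.14 in E1 and 0.01 ± 0.11 in E4 with no call.

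Phosphodiesterases, like all genes tested, had calls in both directions at both times. Of 20 with an adjusted p in E1, 7 were raised, 4 lowered and 9 not called. Of 19 in E4, 3 were raised, 4 lowered and 12 not called. The share called was 55% in E1 and 36.8% in E4, beside 35.5% and 39% of all genes tested. The Pde1 enzymes break down both cyclic nucleotides and are switched on by calcium and calmodulin. Pde1b, the first of the 22 per kilobase of exon, stood at about 3211 normalised counts in E0, 1571 in E1 and 1053 in E4. It was lowered to 0.488 of E0 in the authors' deposited table for E1 (-1.04 ± 0.09, DESeq2 adjusted p = 3.19e-26). In that for E4 it was lowered to 0.328 (-1.61 ± 0.09, DESeq2 adjusted p = 3.18e-64, authors' deposited table). Pde1a went the other way in E1, from about 792 normalised counts in E0 to 2563, and was at 390 in E4. The authors' deposited tables give Pde1a 1.66 ± 0.14 for E1 and -1.02 ± 0.16 for E4 (DESeq2 adjusted p = 5.67e-29 and 6.55e-10). Transcripts of Pde1a hold a CA or GA run of 43 bases, and those of Pde1b none longer than 10. The rarely read Pde1c had 33, 25 and 14 reads in the E0 libraries, 21, 30 and 11 in E1 and 56, 36 and 31 in E4, or 2.68 ± 0.37, 6.34 ± 2.33 and 3.58 ± 0.522 RPM (n = 3 each). Its E1 libraries lay above all E0 libraries, and Pde1c was called raised in E1 (1.04 ± 0.39) and not called in E4 (0.35 ± 0.31) in the authors' deposited tables.

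The Pde4 enzymes, which break down cyclic AMP and are the targets of rolipram, are coded by 4 genes whose calls differed in direction and time. Pde4a stood at about 999 normalised counts in E0, 933 in E1 and 2419 in E4. Its log2 fold change for E1 was -0.08 ± 0.17 in the authors' deposited table (DESeq2 adjusted p = 0.779). In that for E4 it was raised 2.42-fold (1.28 ± 0.13, DESeq2 adjusted p = 2.51e-21, authors' deposited table), more than any other phosphodiesterase called there. Pde4d was raised in E1, from about 202 to 454 normalised counts, and stood at 172 in E4. The authors' deposited tables give Pde4d 1.12 ± 0.19 for E1 (DESeq2 adjusted p = 3.97e-08) and -0.24 ± 0.16 for E4 (DESeq2 adjusted p = 0.253), with no long repeat run in its transcripts. Pde4b was not called in E1 (0.28 ± 0.18) and lowered in E4 (-0.47 ± 0.13, DESeq2 adjusted p = 0.000972) in the authors' deposited tables, at about 461, 566 and 333 normalised counts. Pde4c, hardly read in E0, had 7, 7 and 6 reads in the E0 libraries, 31, 18 and 22 in the shallower E1 libraries and 13, 1 and 8 in E4. In RPM these are 0.795 ± 0.171, 7.74 ± 3.17 and 0.618 ± 0.458 (n = 3 each), so that the mean of E1 was 9.73 times that of E0 and no E1 library overlapped E0. The log2 fold change of Pde4c is 2.63 ± 0.43 in the authors' deposited table for E1 (DESeq2 adjusted p = 8.26e-09).

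Pde7 and Pde8 enzymes also act on cyclic AMP alone and are insensitive to many inhibitors of the class. Pde7b was lowered at both times, from about 501 normalised counts in E0 to 355 in E1 and 193 in E4. The log2 fold changes are -0.50 ± 0.17 and -1.38 ± 0.14 in the authors' deposited tables (DESeq2 adjusted p = 0.0108 and 8.58e-22), and its transcripts hold a CA or GA run of 31 bases. Pde7a was raised in E1 at 0.44 ± 0.17 (DESeq2 adjusted p = 0.026) and not called in E4 at 0.18 ± 0.14 in the authors' deposited tables. Pde8b was lowered in E1 and raised in E4, with about 1207 normalised counts in E0, 777 in E1 and 1656 in E4. The authors' deposited tables give Pde8b -0.63 ± 0.12 and 0.46 ± 0.09 (DESeq2 adjusted p = 8.32e-07 and 1.14e-06), and the antisense Gm48420 covers 7.6% of its exon bases. Its relative Pde8a had 54, 35 and 25 reads in E0, 12, 23 and 12 in E1 and 47, 67 and 32 in E4, overlapping groups with no call.

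Pde2a, Pde3, Pde10a and Pde11a break down both nucleotides. Pde10a stood at about 745 normalised counts in E0, 649 in E1 and 1271 in E4. It was not called in E1 (-0.19 ± 0.17) and raised in E4 (0.77 ± 0.11, DESeq2 adjusted p = 4.69e-12) in the authors' deposited tables. Pde2a, which cyclic GMP stimulates, was not called at 0.19 ± 0.11 in E1 and 0.24 ± 0.11 in E4 in the authors' deposited tables (DESeq2 adjusted p = 0.154 and 0.0569). The annotated gene Gm45837 shares 64.3% of the exon bases of Pde2a on the same strand, so its reads could have been divided or dropped. Pde11a had 32, 19 and 14 reads in the E0 libraries, 26, 20 and 12 in E1 and 22, 9 and 17 in E4, or 2.43 ± 0.434, 5.87 ± 0.366 and 1.4 ± 0.451 RPM (n = 3 each). The 3 groups of Pde11a libraries did not overlap, E1 being highest and E4 lowest, yet only E1 was called, at 1.07 ± 0.39 in the authors' deposited table (DESeq2 adjusted p = 0.0195). Pde3a showed the same order of E1 over E0 without a call, with 17, 15 and 18 reads in E0, 20, 15 and 10 in E1 and 19, 18 and 19 in E4. Its value is 0.97 ± 0.42 in the authors' deposited table for E1 (DESeq2 adjusted p = 0.0604), and the antisense Gm28523 covers 5.8% of its exon bases. Pde3b was not called at either time.

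Of the enzymes that act on cyclic GMP, Pde5a, the target of sildenafil, was raised in E1. Its reads were 24, 30 and 25 in the E0 libraries, 74, 57 and 37 in E1 and 29, 22 and 25 in E4. In RPM they came to 3.19 ± 0.946 in E0, 17.2 ± 1.76 in E1 and 2.26 ± 0.201 in E4 (mean ± SD, n = 3 each). The E1 mean was 5.4 times that of E0, the lowest E1 library was 3.82 times the highest of E0, and E4 overlapped E0. The authors' deposited table for E1 gives Pde5a 2.25 ± 0.30 (DESeq2 adjusted p = 1.37e-12), and that for E4 -0.39 ± 0.33 with no call. Pde5a is also known from vascular smooth muscle, for which no marker list was made. Of the 6 endothelial markers 3 were raised and 1 lowered in E1. Those raised were Flt1 at 1.49 ± 0.30, Pecam1 at 1.12 ± 0.33 and Cdh5 at 0.99 ± 0.35 in the authors' deposited table. In that table Ly6c1 was lowered at -0.90 ± 0.30, while Cldn5 (0.35 ± 0.29) and Slco1a4 (0.54 ± 0.26) had no call. The part of vessel cells in the rise of Pde5a was not tested. Pde9a, with the highest affinity for cyclic GMP in the family, was not called, at 13.8 ± 0.618 RPM in E0, 12.5 ± 3.69 in E1 and 14 ± 0.527 in E4 (n = 3 each), with overlapping groups. Pde6d, which codes for a carrier of prenylated proteins that was first found with the photoreceptor enzyme, was lowered in E1 at -0.57 ± 0.21 (DESeq2 adjusted p = 0.0245) in the authors' deposited table and not called in E4. The photoreceptor gene Pde6a had no read in the 6 libraries of E0 and E1, which allows up to 0.0828 RPM, and 4, 2 and 4 reads in E4. Pde6b summed to 9 reads in E0, 4 in E1 and 7 in E4, and Pde6c to 1, 0 and 1.

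**Figure D4:**
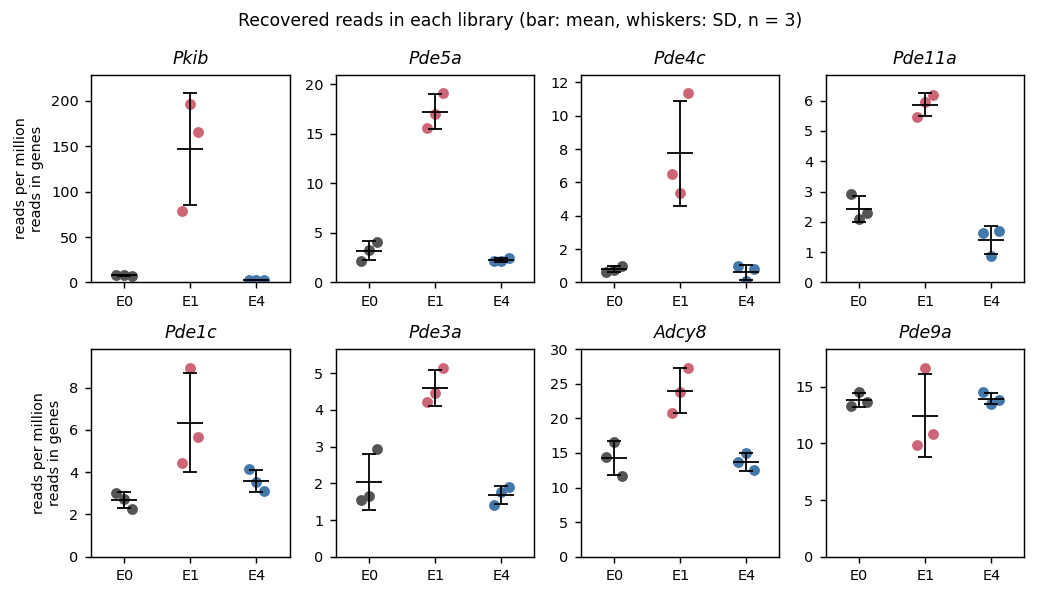
RPM (vertical axis, from 0) in each library of E0, E1 and E4 for 8 members whose whole reads could be solved. Points are libraries, bars means and whiskers SD (n = 3). In 7 panels every E1 library lies above every E0 library, and in that of Pde9a the groups overlap. The 7 are all such members of the 15 solved, and Pde9a was taken from the rest.

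Of the 15 members with solved reads, 7 had E1 libraries that did not overlap those of E0, namely Pkib, Pde4c, Pde5a, Pde11a, Pde1c, Pde3a and Adcy8. Of 400 genes taken at even steps through the 9592 with a mean count of up to 140 in the table for E4, 31.5% had E1 libraries that did not overlap E0, 16% above and 15.5% below. In all 7 the E1 libraries were the higher ones. Within E1 the deepest library was the lowest of its group for Pkib, Adcy8, Pde5a, Pde11a, Pde3a and Pde1c, but not for Pde4c. For Adcy8 the E1 libraries stood at 20.8, 23.8 and 27.3 RPM from the deepest to the shallowest, and for Pde5a at 15.6, 17 and 19.1. The part of depth in these E1 values was not tested. For E4 there were 4, Pkib and Pde11a lower and Pde1c and Pde6a higher than E0, beside 24.2% of the 400 genes. Of these 4 only Pkib passed the adjusted p. The cyclases Adcy4, Adcy7 and Adcy10, read 60, 76 and 5 times in the E0 libraries together, had overlapping groups at both times.

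The subunit genes of kinase A had log2 fold changes between -0.19 (Prkaca in E4) and 0.75 (Prkar2a in E1) in the authors' deposited tables, and none was lowered. The catalytic subunit gene Prkacb stood at about 4646 normalised counts in E0, 5627 in E1 and 5255 in E4, and Prkaca at 2078, 2395 and 1821. Prkacb was raised in E1 at 0.27 ± 0.10 (DESeq2 adjusted p = 0.0194) and not called in E4 at 0.18 ± 0.10 in the authors' deposited tables. Prkaca was not called at 0.20 ± 0.13 in E1 and -0.19 ± 0.11 in E4 in the authors' deposited tables. Of 4 regulatory subunit genes 3 were raised in E1 and 3 in E4, beside 20.6% and 20.7% of all genes tested. Prkar2a, which anchoring proteins tie to membranes, was raised at 0.75 ± 0.14 in E1 and 0.46 ± 0.12 in E4 in the authors' deposited tables (DESeq2 adjusted p = 9.5e-07 and 0.000478), at about 486, 820 and 667 normalised counts. Prkar1b, the regulatory subunit of the type I kinase most tied to neurons, stood at about 2977, 4482 and 2941. It was raised in E1 (0.59 ± 0.10, DESeq2 adjusted p = 7.35e-09) and not called in E4 (-0.02 ± 0.11) in the authors' deposited tables, and Gm15672 shares 9.0% of its exon bases. Prkar1a, the most read kinase A gene, was at about 7069, 8536 and 8114. Its values are 0.27 ± 0.08 in E1 and 0.20 ± 0.08 in E4 in the authors' deposited tables (DESeq2 adjusted p = 0.00398 and 0.035), and the call in E4 was lost when fold changes were centred on the median (adjusted p = 0.0653). Prkar2b was not called in E1 (-0.14 ± 0.16) and raised in E4 (0.32 ± 0.11, DESeq2 adjusted p = 0.00768) in the authors' deposited tables.

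All 3 inhibitor peptide genes were called in each comparison, 1 raised and 2 lowered in both. Of all genes tested, 35.5% were called in E1 and 39% in E4. Where the mean reached 50 counts, as it did for these 3, the shares were 45.1% and 47.4%. Pkib was read 90, 74 and 44 times in the E0 libraries, 374, 660 and 322 times in E1 and 43, 32 and 32 times in E4. These are 7.84 ± 0.583 RPM in E0, 147 ± 61.2 in E1 and 3.16 ± 0.0323 in E4 (mean ± SD, n = 3 each). The 3 groups did not overlap. The E1 mean was 18.8 times that of E0, the lowest E1 library was 9.58 times the highest of E0, and the deepest E1 library was the lowest of its group, at 78.6 RPM beside 197 and 166. The authors' deposited tables give Pkib 3.71 ± 0.36 in E1 and -1.19 ± 0.26 in E4 (DESeq2 adjusted p = 1.48e-23 and 1.98e-05). Its CA or GA run of 54 bases was the longest among the members. Pkig moved in the opposite order, with about 841 normalised counts in E0, 482 in E1 and 1471 in E4. It was lowered in E1 (-0.79 ± 0.14, DESeq2 adjusted p = 1.65e-07) and raised in E4 (0.81 ± 0.10, DESeq2 adjusted p = 9.15e-14) in the authors' deposited tables, with no run longer than 9 bases. Pkia, the inhibitor gene with the highest level, was lowered at both times, from about 3840 normalised counts in E0 to 2714 in E1 and 2846 in E4. Its log2 fold changes are -0.50 ± 0.11 and -0.43 ± 0.11 in the authors' deposited tables (DESeq2 adjusted p = 7.3e-05 and 0.000359).

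Whether a member differed between E4 and E1 was tested by subtracting the deposited log2 change of E1 from that of E4 and dividing by their combined error, with Benjamini-Hochberg adjustment over 12769 genes. Both comparisons share the E0 libraries, which this error leaves out of account. Of 36 members tested 6 were higher and 13 lower in E4, and 17 were not called, beside 36.7% of all genes called, 17.7% higher and 19% lower. The members higher in E4 were Pkig at 1.60 ± 0.17 (difference of log2 fold changes ± SE, adjusted p = 2.43e-18), Pde4a at 1.35 ± 0.21, Pde8b at 1.09 ± 0.15, Pde10a at 0.96 ± 0.20, Adcy1 at 0.71 ± 0.15 and Prkar2b at 0.46 ± 0.19. The largest differences downward were those of Pkib at -4.90 ± 0.44 (adjusted p = 9.85e-27), Pde1a at -2.68 ± 0.21 and Pde5a at -2.64 ± 0.45. Pde1b and Pde7b, lowered at both times, were lower still in E4 by this test, at -0.57 ± 0.13 (adjusted p = 0.000108) and -0.87 ± 0.22 (adjusted p = 0.00037). Pkia did not pass it (0.07 ± 0.16, adjusted p = 0.767). Neither catalytic subunit gene was called, Prkaca at -0.39 ± 0.17 (adjusted p = 0.0596) and Prkacb at -0.10 ± 0.14 (adjusted p = 0.63). Prkaca was called lower in E4 with a correlation of 0.5 between both estimates (adjusted p = 0.00355) and after median centring (adjusted p = 0.0368).

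**Figure D5:**
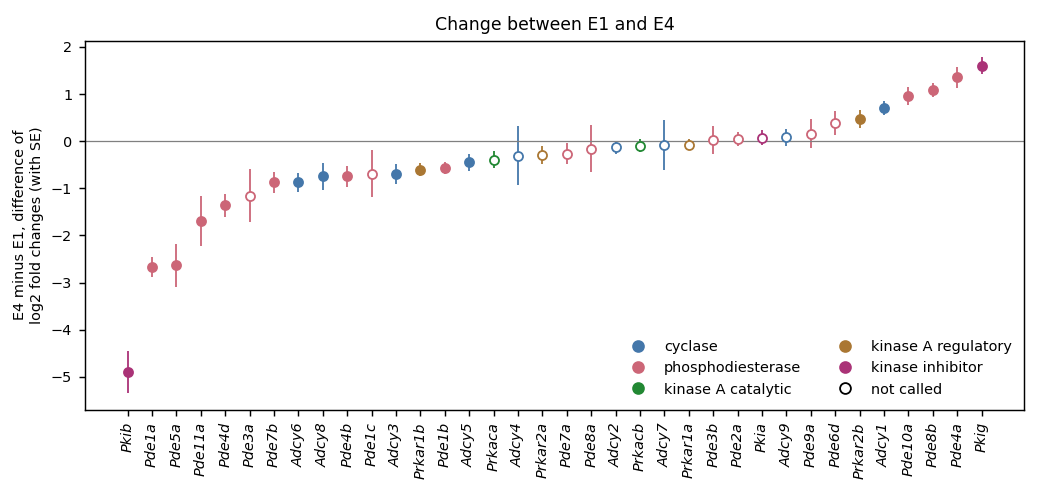
Difference of log2 fold changes, E4 minus E1 (vertical axis), with its SE for the 36 members tested, in rising order and coloured by family. Filled points passed the adjusted p of 0.05. Pkib lies lowest at -4.90 and Pkig highest at 1.60.

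Other genes of the pathway were taken from 8 lists, read beside the medians of 0.02 in E1 and -0.01 in E4 over all genes tested and the shares called given above. G protein alpha subunits and cyclase regulators had 4 of 9 raised and 1 lowered in E1 (median log2 fold change 0.19), and 2 raised and 3 lowered in E4 (median -0.17). Gnas, which codes for the stimulatory alpha subunit, stood at 0.56 ± 0.08 in E1 and -0.26 ± 0.08 in E4, the inhibitory Gnai1 at 0.83 ± 0.12 and -0.46 ± 0.10, and both were called at both times in the authors' deposited tables. Gnao1 was at 0.73 ± 0.11 in E1, and Gnal, a close relative of Gnas, was lowered in E4 at -0.75 ± 0.10 in the authors' deposited tables. Of receptors and peptides that raise cyclic AMP 5 of 19 were raised and 3 lowered in E1 (median 0.08), and 5 of 18 raised and 2 lowered in E4 (median 0.17). The receptor gene Vipr2 stood at 5.35 ± 0.36 in E1, raised from few reads, and the PACAP receptor gene Adcyap1r1 was lowered there at -0.76 ± 0.13 in the authors' deposited table. Over the E0 and E4 libraries Vipr2 had a mean count of only 3.38, and it had no adjusted p in E4. Both D1-type dopamine receptor genes were raised in E4, Drd1a at 1.78 ± 0.19 and Drd5 at 1.32 ± 0.12 in the authors' deposited table. Drd1a also stands in the list of striatum or choroid plexus markers, and the part of such tissue in its rise was not tested. The melanocortin receptor gene Mc4r was lowered at both times, -2.28 ± 0.37 and -2.61 ± 0.28 in the authors' deposited tables.

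Anchoring proteins, which hold kinase A near its targets, had 5 of 15 raised and 5 lowered in E1 (median 0.27), and 2 raised and 2 lowered in E4 (median 0.08). Akap5, a postsynaptic anchor, was raised in E1 at 1.48 ± 0.16 and lowered in E4 at -0.88 ± 0.15 in the authors' deposited tables. Akap7 (-1.38 ± 0.16) and Ezr (-1.23 ± 0.14) were lowered in E1, and in E4 Akap13 was raised (1.59 ± 0.14) and Akap6 lowered (-0.88 ± 0.09) in the authors' deposited tables. Other sensors of cyclic nucleotides had 6 of 12 raised and none lowered in E1 (median 0.53), and 2 of 11 raised and 3 lowered in E4 (median -0.33). The pacemaker channel gene Hcn2 was raised in E1 at 0.46 ± 0.14 and lowered in E4 at -0.59 ± 0.12 in the authors' deposited tables. Cnga3 in E1 (2.34 ± 0.55) and Hcn4 in E4 (1.45 ± 0.43) were raised from few reads in the authors' deposited tables. Guanylate cyclases, cyclic GMP kinases and Nos1 had 4 of 11 raised and 1 lowered in E1 (median -0.01), and none raised and 4 lowered in E4 (median -0.37). Gucy1b3, the shared subunit of the nitric oxide receptor, was lowered at both times, -0.58 ± 0.12 and -0.73 ± 0.10 in the authors' deposited tables. Gucy1a3 (-1.29 ± 0.16) and the nitric oxide synthase gene Nos1 (-1.14 ± 0.17) were lowered in E4, and Gucy1a2 (0.84 ± 0.19) and Prkg1 (1.05 ± 0.23) raised in E1, in the authors' deposited tables.

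Phosphatase inhibitors and related substrates of kinase A, listed together with Pcp4, had 2 of 6 raised and 3 lowered in E1 (median -0.26). In E4 5 were raised and 1, Pcp4, was lowered (median 0.66). Arpp21 was raised at both times, 1.32 ± 0.10 and 1.53 ± 0.13, as was Arpp19, 0.71 ± 0.14 and 1.03 ± 0.12, in the authors' deposited tables. Pcp4, a calmodulin-binding protein gene, was lowered in E1 (-0.82 ± 0.13) and Ensa raised in E4 (0.72 ± 0.09) in the authors' deposited tables. The CREB family, its coactivators and the Sik kinases had 6 of 9 raised and 2 lowered in E1 (median 0.63), and 5 raised and 1 lowered in E4 (median 0.57). Sik1, itself a target of CREB, was raised at both times, 2.84 ± 0.19 and 1.34 ± 0.15, with Atf1 (2.85 ± 0.23) and Sik2 (1.52 ± 0.21) in E1 and Creb1 (0.86 ± 0.11) and Sik3 (0.83 ± 0.13) in E4 in the authors' deposited tables. Of 4 genes named for phosphodiesterases that the symbol rule leaves out, Pde4dip, which codes for a centrosomal and Golgi protein, was lowered in E1 (-0.53 ± 0.11) and raised in E4 (0.87 ± 0.09) in the authors' deposited tables. Pde12 was raised in E4 (0.43 ± 0.16) and not called in E1 (-0.06 ± 0.23), and Pde6h was not called in E1 (0.33 ± 0.54), in the authors' deposited tables.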

How the data were processed

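Total RNA of microdissected dentate gyrus was sequenced from 9 individual mice. Per the submitters' processing notes, reads were aligned with TopHat2 to mm9 and compared with DESeq2, without versions. Sources used here do not state the counter, the annotation, the strand setting or the model. The deposited tables hold 24015 rows each and no value per mouse. The signal column deposited by the authors is the mean normalised count, per the file headers. The log2 fold change and its standard error are the authors' estimates, per the file headers. The headers do not name shrinkage, and that the fold changes are shrunken toward 0 was read from their size. For genes with a mean count below 1 the median absolute log2 fold change was only 0.142 in E1 and 0.106 in E4. The score is the deposited fold change over its error, and the deposited p-value and adjusted p-value match a two-sided normal p and Benjamini-Hochberg values within 6.44e-08 and 3.56e-07. Missing adjusted p-values were kept missing.

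The E4 minus E1 test took genes averaging 10 counts or more in each table and was checked on simulated data. Whole reads were solved by finding, among genes with 1 read, what 1 read adds to the mean count in each library. Of 400 genes tried with a mean count below 10, all 400 had exactly 1 solution in whole reads with the same E0 reads in both tables, and so had all 15 members tried (mean count up to 140 in the table for E4). E0 was taken as the group that both tables share. Reads in genes per library were approximated by scaling the table's total of mean counts with each size factor. Deposited errors and p-values rest on these mice only, through the model of DESeq2, and do not measure the spread between mice directly. Those of E4 minus E1 were computed from the deposited values. Exon lengths, repeat runs and overlaps come from GENCODE M21 (GRCm38), another build than the files' mm9, and promoters from RefSeq. Tools were Python 3.11.15, numpy 2.4.6, pandas 2.3.3 and scipy 1.17.1. Dates in place of 27 symbols of the E1 file were left out of joins.

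Values are given for members with a call, an absolute log2 fold change of at least 0.5 and a mean count of at least 50, for those that differ by 0.5 between E4 and E1, and for the most read member of each family, 23 in all, and for up to 3 genes of each pathway list. The values of 1 listed gene are not reported here. Pde1c, Pde3a, Pde4c, Pde11a and others are named beyond this rule, chosen after their values were seen. The members and lists were chosen with earlier results of these data known. Alternatives were other filters on low counts, median centring, a threshold of 0.01, a correlation of 0.5 between the estimates and, chosen after seeing the data, leaving out genes with a CA or GA run of at least 30 bases.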

Additional observations from a re-analysis of the deposited data

Results flagged for a closer look

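The change from E0 differed between the 2 times, by the test of the difference, in 19 of 36 members tested, beside 36.7% of all 12769 genes tested. The differences are E4 minus E1 on the log2 scale with their SE. Among the kinase inhibitor genes these were Pkib at -4.90 ± 0.44 (adjusted p = 9.85e-27) and Pkig at 1.60 ± 0.17 (adjusted p = 2.43e-18). The phosphodiesterase genes that were lower in E4 were Pde1a at -2.68 ± 0.21 (adjusted p = 2.79e-34), Pde5a at -2.64 ± 0.45 (adjusted p = 5.08e-08), Pde11a at -1.69 ± 0.53 (adjusted p = 0.0063), Pde4d at -1.36 ± 0.25 (adjusted p = 5.28e-07), Pde7b at -0.87 ± 0.22 (adjusted p = 0.00037), Pde4b at -0.74 ± 0.22 (adjusted p = 0.00355) and Pde1b at -0.57 ± 0.13 (adjusted p = 0.000108). Those higher in E4 were Pde4a at 1.35 ± 0.21 (adjusted p = 5.01e-09), Pde8b at 1.09 ± 0.15 (adjusted p = 3.03e-12) and Pde10a at 0.96 ± 0.20 (adjusted p = 9.51e-06). Among the cyclases Adcy6 at -0.87 ± 0.21 (adjusted p = 0.000163), Adcy8 at -0.75 ± 0.29 (adjusted p = 0.0307), Adcy3 at -0.69 ± 0.21 (adjusted p = 0.00516) and Adcy5 at -0.45 ± 0.18 (adjusted p = 0.0381) were lower in E4, and Adcy1 at 0.71 ± 0.15 (adjusted p = 1.17e-05) was higher. Of the regulatory subunits Prkar1b was lower at -0.61 ± 0.14 (adjusted p = 0.000138) and Prkar2b higher at 0.46 ± 0.19 (adjusted p = 0.0466). Transcripts of Pkib, Adcy8, Pde1a and Pde7b hold CA or GA runs of 54, 52, 43 and 31 bases, and the part of these runs was not tested.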

How the results depend on the processing

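Under the alternatives run, the count of members called stayed within 1.5 times the value reported. It was 14 to 20 in E1, 15 to 18 in E4 and 15 to 22 for E4 minus E1. Directions of called members were not put to a test, since only median centring changed the fold changes. The medians it subtracted were small, -0.0159 in E1 and 0.0217 in E4. At a threshold of 0.01 the calls lost were those of Pde6d, Pde7a, Pde7b, Pde11a, Pde1c and Prkacb in E1, Adcy1 and Prkar1a in E4, and Adcy5, Adcy8 and Prkar2b for E4 minus E1. Median centring ended the calls of Prkar1a in E4 (adjusted p = 0.0653) and Prkar2b for E4 minus E1 (adjusted p = 0.0715) and added Prkaca as lower in E4 than in E1 (adjusted p = 0.0368). A correlation of 0.5 between the estimates added Prkaca (adjusted p = 0.00355), Pde3a (adjusted p = 0.00885) and Prkar2a (adjusted p = 0.0463) as lower in E4. Without genes with long repeat runs, 10 members were raised and 6 lowered in E1, and 7 raised and 8 lowered in E4, of 33 and 32 tested. Fewer members were tested there. No paired analysis was possible because the tables hold no value per library for most genes, and for the same reason no replicate could be left out. The E1 libraries were the shallowest. Among genes averaging 50 counts or more, the E1 comparison had a median SE of 0.17, beside 0.135 in that of E4. The part of depth in this difference was not tested.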
